A study of Mus musculus with 5 samples.

Results

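The MHC class I antigen presentation pathway was examined in myeloid progenitors through 10 of its genes, out of 52550 in the table of counts. The 10 genes were Tap1, Tap2, Tapbp, B2m, H2-K1, H2-D1, Psmb8, Psmb9, Psmb10 and Nlrc5, and all 10 were among the 11766 genes with enough counts to be tested. They were named as a set around Tap2, which was chosen by its rise in the comparison described here, so its own values are given as a description with no test. The question was whether genes next to Tap2 and genes of its pathway shared the rise, and whether the counts could belong to a gene on the opposite strand.

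Expression was read by QuantSeq, a 3′ end sequencing method, in Lin-cKit+Sca1- (KL) bone marrow cells sorted from male mice. The BcorΔE9-10 group held 3 libraries from mice labelled scl-Cre-ERT + with a Bcorfl/y genotype, whose floxed exons are removed by Cre, and the BcorWT group held 2 libraries from mice labelled scl-Cre-ERT + with Bcorwt/y. By these labels both groups carried the Cre, which the stem cell SCL promoter element drives. The study describes its controls as littermates that carried either the floxed allele or the Cre alone. Both groups had 1 mg of tamoxifen a day for 5 days at 3 to 6 months of age, with cells taken 20 weeks later. Nothing in the sources used here says whether each library came from 1 mouse, so p-values measure only the spread between these libraries.

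Class I molecules display peptides from inside the cell to cytotoxic T cells. The immunoproteasome, which carries the subunits Psmb8, Psmb9 and Psmb10 in place of constitutive ones, cuts proteins into peptides, and the paired half-transporters Tap1 and Tap2 move these into the endoplasmic reticulum. Tapasin (Tapbp) holds the empty class I molecule, made of a heavy chain such as H2-K1 or H2-D1 and the light chain B2m, next to the transporter until a peptide is bound. Nlrc5 is the transactivator of many of these genes. In the mouse, Tap1, Tap2, Psmb8 and Psmb9 lie side by side within the MHC class II region.

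Total counts ranged from 5998924 to 8303999 per library. Kit, the receptor used in the sort, had 307 to 452 counts in BcorΔE9-10 but 128 and 132 in BcorWT (log2 fold change 1.43, SE 0.173, limma adjusted p = 9.8e-05). Kit was the 1 of 10 listed progenitor genes, all tested, that passed, where 6.02% of all genes passed as higher. The median log2 fold change of the 10 was -0.06, with 4 positive and 6 negative. The myeloid progenitor enzyme Mpo had 26303 to 46819 counts, and Ly6a, which encodes Sca-1, had 3 to 8. Transcripts typical of mature cells were present in both groups. Summed over 10 mature neutrophil genes, the level was 149640 to 173550 CPM (counts scaled to library size with TMM factors) in BcorΔE9-10 and 216250 to 228650 in BcorWT, and 6 of the 10 passed the test as lower, where 4.09% of all genes did. S100a8 and S100a9 were the largest parts, with means of 74648 and 41934 CPM in BcorΔE9-10 and 113560 and 55438 in BcorWT. Camp, the 1 gene of the 10 with a positive log2 fold change (0.25), averaged 24926 CPM in BcorΔE9-10 and 21132 in BcorWT, with overlapping groups.

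Tap2 (mm10, chromosome 17, 34203527 to 34216321, plus strand) drew 916, 763 and 981 counts in BcorΔE9-10 but 40 and 80 in BcorWT. This was 108, 125 and 115 CPM against 5.68 and 11.9 CPM, so the groups were far apart and the BcorWT libraries differed from each other by 2.09-fold. The means were 116 ± 8.18 CPM (SD, n = 3) and 8.77 ± 4.37 CPM (SD, n = 2). The log2 fold change was 3.81 (SE 0.266, 95% interval 3.25 to 4.37), which ranked 35 from the top among all genes tested. The interval does not allow for the choice of Tap2 by this rise and is no test of it. Without BcorWT library 1 the log2 fold change was 3.27 and without BcorWT library 2 it was 4.33. In bulk libraries, a change in the share of cells that carry a transcript and a change in transcript per cell cannot be told apart.

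The neighbours of Tap2 in its own pathway came next. Psmb8 is the nearest gene, ending 2073 bases before the start of Tap2 on the same strand. It had 849, 631 and 758 counts in BcorΔE9-10 and 585 and 635 in BcorWT. At 97.3 ± 7.66 CPM (SD, n = 3) against 88.6 ± 7.79 CPM (SD, n = 2), its groups overlapped and it did not pass the test (log2 fold change 0.13, 95% interval -0.14 to 0.41, limma adjusted p = 0.561). Tap1, the partner of Tap2 in the transporter, ends 6302 bases before Tap2 and had 349, 199 and 249 counts against 289 and 222. Its level was 34.3 ± 6.27 CPM (SD, n = 3) in BcorΔE9-10 and 37.0 ± 5.76 CPM (SD, n = 2) in BcorWT, again with overlap (log2 fold change -0.11, 95% interval -0.50 to 0.27, limma adjusted p = 0.740). With total counts in place of TMM scaling the Tap1 value was 0.03, where the median over all genes was 0.15.

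Psmb9 was the member other than Tap2 that rose. It lies on the minus strand 15763 bases before Tap2, head to head with Tap1, and had 630, 599 and 689 counts in BcorΔE9-10 and 261 and 377 in BcorWT. In CPM this was 74.5, 97.7 and 80.5 against 37.1 and 55.9, with all BcorΔE9-10 libraries above both BcorWT libraries. It passed the test (log2 fold change 0.87, SE 0.175, 95% interval 0.50 to 1.24, limma adjusted p = 0.00466). The size of the rise depended on BcorWT library 1, and without that library it was 0.57 (limma adjusted p = 0.0785) and no longer passed the test.

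**Figure D1:**
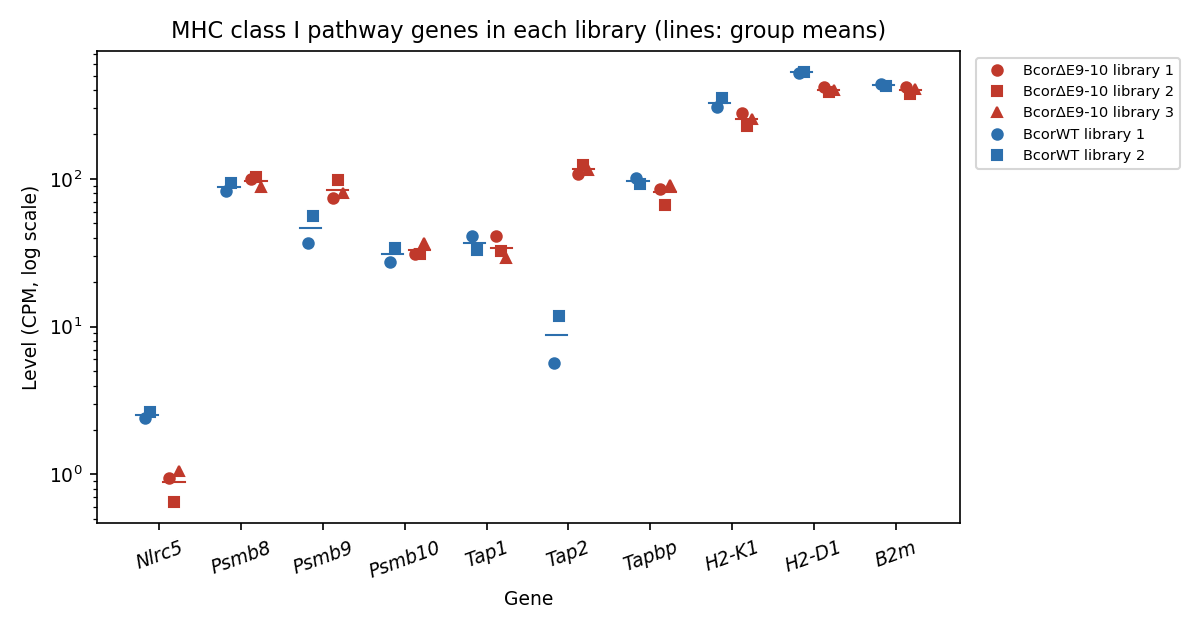
Level of each of the 10 class I pathway genes in CPM on a log axis, with 1 point per library (3 BcorΔE9-10 in red, 2 BcorWT in blue) and a line at each group mean. Tap2 lies at 108 to 125 CPM in BcorΔE9-10 and at 5.68 and 11.9 CPM in BcorWT, while the groups of Psmb8, Psmb10 and Tap1 overlap.

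Ratios of read counts within a library do not depend on scaling between libraries. They are ratios of transcript ends, not adjusted for length, and serve here to compare libraries with each other. The ratio of Tap2 to Tap1 was 2.62, 3.83 and 3.94 in BcorΔE9-10 but 0.138 and 0.360 in BcorWT. The ratio of Tap2 to Psmb8 was 1.08 to 1.29 in BcorΔE9-10 against 0.0684 and 0.126. The half-transporters of the peptide pump were thus counted in very different proportions in the 2 groups. These ratios restate the rise by which Tap2 was chosen and are no separate result. Psmb9 to Tap1, a pair that shares a promoter region, was 1.81 to 3.01 against 0.903 and 1.7, so the groups were separate but close.

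The promoter windows of 8 of the 10 members were found in the RefSeq table (GRCm38.p6, from 250 bases before to 50 bases after the start). Tap2 and Nlrc5 had no entry. The RefSeq starts of Tap1 and Psmb9 lie 226 bases apart and their windows share 275 bases, so a single stretch is shown for the gene that rose and the gene that did not. B2m, H2-K1 and H2-D1 are shown because they encode the light chain and the 2 main heavy chains. Capitals mark matches on either strand to 3 short motifs: CCAAT (the NF-Y box), GAAANNGAA (a form of the interferon regulatory factor repeat) and TTCNNNGAA (a gamma-activated site). The last 2 motifs can overlap each other. The 4 windows, each 300 bases long, are as follows.
Tap1 and Psmb9, shown on the plus strand of Tap1 (chr17:34187306-34187605): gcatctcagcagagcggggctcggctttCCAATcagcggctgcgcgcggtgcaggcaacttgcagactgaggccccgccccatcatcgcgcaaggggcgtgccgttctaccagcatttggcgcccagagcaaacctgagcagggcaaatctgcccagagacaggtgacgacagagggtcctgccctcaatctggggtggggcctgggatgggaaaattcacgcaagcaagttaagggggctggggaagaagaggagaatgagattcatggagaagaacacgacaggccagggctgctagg
H2-D1, plus strand (chr17:35262844-35263143): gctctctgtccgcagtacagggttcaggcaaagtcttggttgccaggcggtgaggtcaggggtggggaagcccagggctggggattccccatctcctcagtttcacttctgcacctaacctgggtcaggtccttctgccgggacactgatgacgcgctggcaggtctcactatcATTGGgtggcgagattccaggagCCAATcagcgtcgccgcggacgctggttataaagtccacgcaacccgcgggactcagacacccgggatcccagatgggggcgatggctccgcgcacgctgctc
H2-K1, minus strand (chr17:34000284-34000583): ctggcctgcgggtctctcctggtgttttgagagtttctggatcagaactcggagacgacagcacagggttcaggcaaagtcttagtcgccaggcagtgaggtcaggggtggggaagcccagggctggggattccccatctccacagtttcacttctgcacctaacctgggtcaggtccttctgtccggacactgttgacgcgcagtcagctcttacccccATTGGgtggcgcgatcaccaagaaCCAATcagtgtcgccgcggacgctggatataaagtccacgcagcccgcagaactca
B2m, plus strand (chr2:122147437-122147736): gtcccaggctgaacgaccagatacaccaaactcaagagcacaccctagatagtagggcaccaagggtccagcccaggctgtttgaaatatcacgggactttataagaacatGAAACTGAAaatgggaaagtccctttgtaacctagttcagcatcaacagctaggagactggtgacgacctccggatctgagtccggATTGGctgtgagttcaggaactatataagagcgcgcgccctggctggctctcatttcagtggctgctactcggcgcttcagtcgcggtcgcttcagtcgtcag

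The Tap1 window holds 1 CCAAT match, which is also in the Psmb9 window, and neither of the other motifs. The windows of H2-D1 and H2-K1 each hold 2 CCAAT matches, and B2m holds 1 together with 1 GAAANNGAA match. The search took the 2 parts of GAAANNGAA in that order only. In the H2-D1 and H2-K1 windows the same parts stand in the other order, in lower case, on the strand not shown. That form was not counted, so a window without a match is not shown to lack an interferon regulatory factor repeat. Psmb8 has 1 TTCNNNGAA match in its window. Of all 32851 windows in the table, 37.4% hold CCAAT, 8.56% GAAANNGAA and 8.3% TTCNNNGAA. These matches describe letters in the window and were not measured as bound sites.

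H2-D1, a classical heavy chain, fell. It had 3563, 2380 and 3398 counts in BcorΔE9-10 and 3684 and 3555 in BcorWT, or 421, 388 and 397 CPM against 523 and 527. All BcorΔE9-10 libraries were below both BcorWT libraries, and the log2 fold change (-0.38, SE 0.0962) passed the test (limma adjusted p = 0.0184). The adjusted p ranged from 0.00110 to 0.121 over the alternatives, and the call was lost without BcorΔE9-10 library 3 (0.0595), without BcorWT library 1 (0.0645), without BcorWT library 2 (0.0528) and with total counts in place of TMM scaling (log2 fold change -0.24, 0.121). Of the 30-base words in the last 300 bases of its transcript, 40.2% occur in other genes, so reads of this end may be shared.

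H2-K1, the other classical heavy chain, had 281, 228 and 253 CPM in BcorΔE9-10 and 305 and 352 CPM in BcorWT. The groups did not overlap, and the log2 fold change (-0.37, SE 0.116) lay just outside the threshold (limma adjusted p = 0.0531). It passed under 5 of 15 alternatives (adjusted p from 0.0271 to 0.250), and 11.1% of the 30-base words of its end also occur in other genes, H2-D1 among them. The light chain B2m had 417, 375 and 405 CPM in BcorΔE9-10 against 441 and 427, and did not pass (log2 fold change -0.12, 95% interval -0.33 to 0.09, limma adjusted p = 0.478). With total counts the B2m value was 0.02, where the median over all genes was 0.15. After correction for the GC content of transcript ends it was -0.32 (limma adjusted p = 0.0565).

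Tapbp, the tapasin gene, had 84.9, 66.9 and 91.5 CPM in BcorΔE9-10 and 101 and 91.7 in BcorWT, and did not pass (log2 fold change -0.25, limma adjusted p = 0.288). Psmb10, the third immunoproteasome subunit, had 30.8, 31.0 and 36.7 CPM against 27.4 and 34.2, and its groups overlapped (log2 fold change 0.10, limma adjusted p = 0.754). Nlrc5 was near the lower end of detection, with 8, 4 and 9 counts in BcorΔE9-10 and 17 and 18 in BcorWT. It passed the filter on low counts through the BcorWT libraries alone, so a difference was built into its being tested. Its log2 fold change of -1.45 is therefore given with no test.

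Of the 8 members other than Tap2 and Nlrc5, 1 passed the test as higher (Psmb9), 1 as lower (H2-D1) and 6 did not pass. Over all genes tested, 10.11% passed in either direction, 6.02% as higher and 4.09% as lower. The median log2 fold change of the 8 was -0.12, beside 0.00 over all genes. The groups did not overlap in 5 of the 8, and 42.8% of all genes tested showed no overlap. Summed over the 9 genes other than Tap2, the level was 1324 to 1452 CPM in BcorΔE9-10 and 1561 to 1618 CPM in BcorWT.

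**Figure D2:**
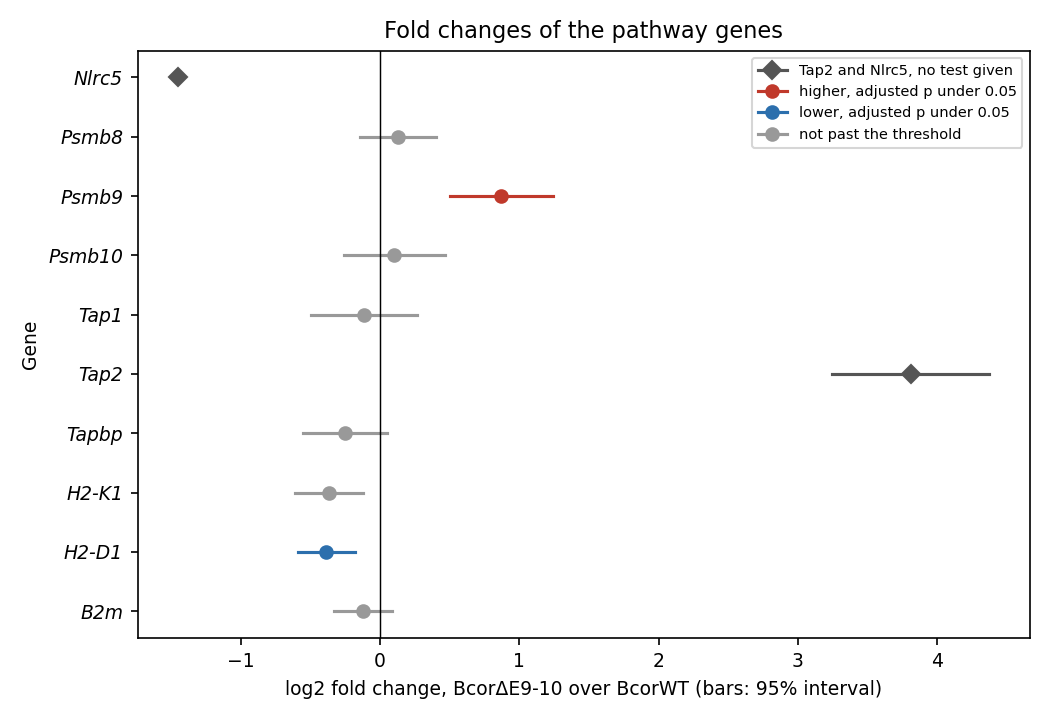
Log2 fold change of each pathway gene (x axis, BcorΔE9-10 over BcorWT) with its 95% interval as a bar, from the fit to all genes. Tap2 stands at 3.81, Psmb9 at 0.87 and H2-D1 at -0.38, and the intervals of the other tested genes lie between -0.61 and 0.47. Nlrc5, at -1.45, is drawn without an interval. The interval of Tap2 does not allow for its choice by this rise.

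The opposite strand was examined next. Tap2 has 3781 exonic bases in 13 blocks, and 2 annotated genes lie against it on the minus strand. Gm20496, an antisense gene (34199316 to 34205449), starts among the first exons of Tap2, ends within Psmb8 and overlaps 165 exonic bases of Tap2, or 4.36% of them. Gm15821, annotated as a macro long non-coding RNA (34211312 to 34214459), overlaps 533 exonic bases, or 14.1%. Both genes had 0 counts in all 5 libraries, which for a count of 0 allows up to 0.361 to 0.500 CPM (of unscaled totals) in a library, for counting error only. The same libraries held 763 to 981 Tap2 counts in BcorΔE9-10.

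QuantSeq reads gather at transcript ends, and neither gene reaches the end of Tap2. The last exon block of Tap2 (34215914 to 34216321, 408 bases) overlaps no exon of either, and the nearest overlap with Gm15821 lies 1862 bases before the 3′ end of Tap2. An AATAAA polyadenylation signal lies 30 bases before the annotated end, and none of the 30-base words in the last 300 bases occurs in another annotated gene. In all 10 members, 0 of the last 300 exonic bases lie under an exon of another gene on either strand. A transcript that is not annotated would not be listed in the table, and base-level coverage was not used here.

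**Figure D3:**
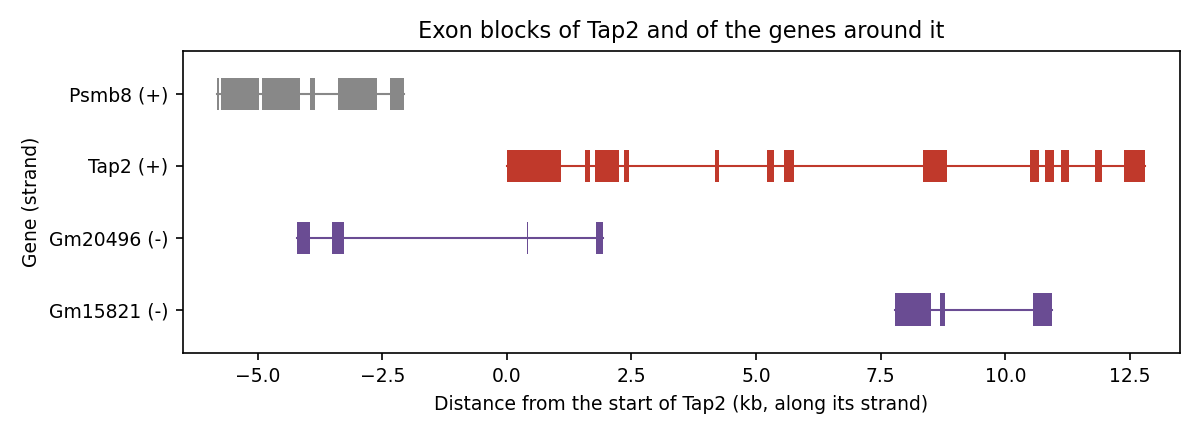
Exon blocks (boxes) of Tap2 and Psmb8 on the plus strand and of Gm20496 and Gm15821 on the minus strand, by distance from the start of Tap2 in kb. The last block of Tap2, 408 bases at the right, has no box of another gene below it, and both minus strand genes had 0 counts.

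The setting used to count reads by strand is not given in the sources used here, so it was looked at in the table itself. Of 644 protein-coding genes with at least 90% of their last 300 bases under an exon of the other strand, 61.3% had 50 or more counts over the 5 libraries. Of 353 such genes covered by an exon of the same strand, 9.07% did, and of 19531 genes with a free end, 44.3% did. A larger share of genes facing another gene on the opposite strand than of free ones thus had counts, while most genes covered on their own strand had none. Tap1 and Psmb9, whose models overlap head to head by 212 exonic bases, share none of their last 300 bases.

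The wider neighbourhood of Tap2 held 16 genes within 100 kb, of which 11 were tested, 2 passed as higher (Psmb9 and Brd2) and 0 passed as lower by limma, by edgeR, by DESeq2 or at an unadjusted p under 0.05, with 4 genes at 0 counts in every library. Of all genes tested, 6.02% passed as higher and 4.09% as lower. Brd2, a bromodomain protein that binds acetylated histones, lies 80893 bases before Tap2 on the minus strand. It had 453, 568 and 440 CPM in BcorΔE9-10 against 262 and 366 in BcorWT (log2 fold change 0.64, SE 0.140, limma adjusted p = 0.00830). As for Psmb9, the call rested on BcorWT library 1, and without it the value was 0.39 (limma adjusted p = 0.124).

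Between Brd2 and Psmb9 lie H2-DMa, H2-DMb1 and H2-DMb2, which encode the molecule that loads class II peptides. Their log2 fold changes were 0.11, -0.10 and -0.29, and their groups overlapped. Downstream of Tap2, the class II genes H2-Ob, H2-Ab1, H2-Aa and H2-Eb1 had values of 0.42, 0.10, 0.15 and 0.25, with limma adjusted p from 0.733 to 0.871. All 4 were higher in BcorWT library 1 than in library 2, as for H2-Aa with 94 against 36 counts, and without library 2 their values turned to between -0.72 and -0.35. Of the 12 class II genes listed, 10 were tested and 0 passed in either direction with limma, 0 of them at an unadjusted p under 0.05. Of all genes tested, 10.11% passed with limma and 25.3% had an unadjusted p under 0.05. edgeR and DESeq2 also called 0, and the lowest limma adjusted p was 0.472, that of H2-Oa. Of the 30-base words of the transcript ends, 75.7% in H2-Oa and 33.6% in H2-DMb2 occur in other genes.

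**Figure D4:**
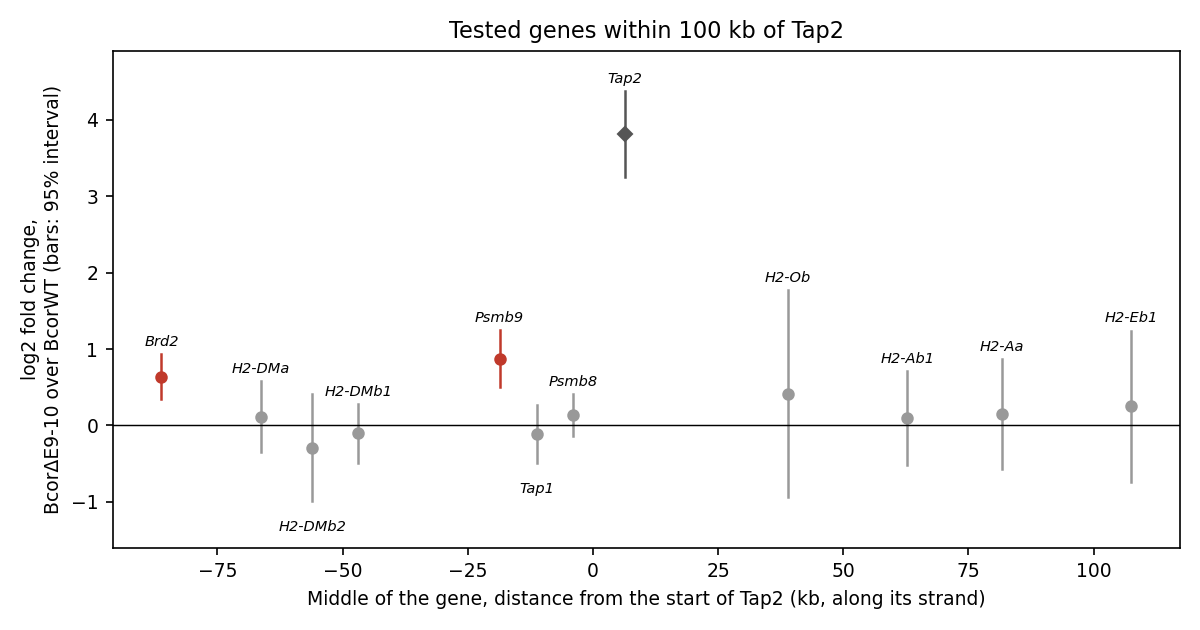
Log2 fold change (y axis, with 95% interval) of the 11 tested genes within 100 kb of Tap2 and of Tap2 itself, by distance of the gene's middle from the start of Tap2 in kb. Tap2 is at 3.81, Psmb9 and Brd2 are at 0.87 and 0.64, and the other intervals all include 0. The interval of Tap2 does not allow for its choice by this rise.

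Within 1 Mb, 78 of 168 genes were tested. Leaving aside Gm17251, 3 passed as higher and 7 as lower, where 6.02% and 4.09% of all genes did. The median log2 fold change was -0.16, beside 0.00 over all genes. Apart from Psmb9 and Brd2, the higher gene was Skiv2l, an RNA helicase gene 622907 bases downstream, and both it and Gm17251 were named after their values were seen. Gm17251, with 41, 24 and 50 counts against 5 and 14, passed the filter on low counts through the BcorΔE9-10 libraries alone and is given with no test. Skiv2l had 238, 251 and 307 counts in BcorΔE9-10 and 24 and 48 in BcorWT (log2 fold change 2.79, SE 0.350, limma adjusted p = 0.000129). As with Tap2, BcorWT library 2 was 2.09-fold above library 1 in CPM.

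Beyond the 10 members, 51 other genes of the class I pathway and its control were listed and 42 were tested. Of these, 2 passed as higher and 2 as lower, where 10.11% of all genes tested passed in either direction, and the median log2 fold change was 0.04. A share of this size is near the background and is no result about the list. In the peptide loading list, Tapbpl, which encodes the tapasin-related editor TAPBPR, had 277, 205 and 244 counts in BcorΔE9-10 and 126 and 157 in BcorWT (log2 fold change 0.62, SE 0.188, limma adjusted p = 0.0453). It passed under 7 of 15 alternatives, with adjusted p from 0.0141 to 0.332, and without BcorWT library 1 the value was 0.42. The chaperones Calr (-0.22), Canx (0.03) and Pdia3 (-0.16) and the trimming peptidase Erap1 (0.10) did not pass, and their groups overlapped. The last 300 bases of Erap1 lie under an exon of the other strand, and 100% of their 30-base words occur in other genes.

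Among the class I heavy and light chains, 12 of 21 were tested. H2-D1 and the non-classical heavy chain H2-Q7 passed as lower, and 0 passed as higher by limma, edgeR, DESeq2 or at an unadjusted limma p under 0.05. Over all genes tested, 4.09% passed as lower and 6.02% as higher, and 13.8% were higher at an unadjusted p under 0.05. H2-Q7 had 146, 100 and 136 counts against 170 and 184 (log2 fold change -0.63, SE 0.183, limma adjusted p = 0.0369). Its call was lost without any 1 BcorΔE9-10 library, and its value was -0.73 and -0.54 without BcorWT library 1 and 2. With all libraries kept, limma adjusted p was 0.106 with total counts, 0.0637 with no expression filter and 0.0730 with a replicate block. It was 0.0586 after correction for the GC content of transcript ends and 0.121 with the block as well. The activator subunits Psme1 (0.10) and Psme2 (0.18) and the assembly factor Pomp (-0.21) did not pass. The constitutive catalytic subunits that Psmb8, Psmb9 and Psmb10 replace are Psmb5, Psmb6 and Psmb7, and their log2 fold changes were -0.30 (limma adjusted p = 0.0918), -0.20 and 0.13. Words of the transcript end also occur in other genes, pseudogenes among them, for 63.5% of those of Psmb5, 10.3% of Psmb6, 90.4% of Psmb7, 30.3% of Psme1 and 70.9% of Psme2, and the end of Psmb7 lies under an exon of the other strand.

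Of 14 genes that encode regulators of class I transcription, all tested, Nfkb1 passed as higher and Rela as lower, beside 10.11% of all genes in either direction. Nfkb1, the p105 and p50 subunit of NF-κB, had 274, 251 and 300 counts in BcorΔE9-10 and 129 and 111 in BcorWT (log2 fold change 1.03, SE 0.191, limma adjusted p = 0.00266). After correction for the GC content of transcript ends its log2 fold change was 0.56 (limma adjusted p = 0.0718) and no longer passed the threshold. Rela, its p65 partner, had 746, 481 and 733 counts against 777 and 830 (log2 fold change -0.47, SE 0.123, limma adjusted p = 0.0237) and passed under 8 of 15 alternatives. Irf1, which binds interferon response elements, was at -0.22, with overlapping groups. Of 12 interferon receptor and signalling genes, 0 passed with limma, edgeR or DESeq2, and 2 were lower at an unadjusted limma p under 0.05, where 11.5% of all genes tested were. The lowest limma adjusted p was 0.0686, that of Ifnar2, a chain of the type I interferon receptor (log2 fold change -0.44).

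Marker genes of other cell types were summed in each library, since these cells also carry class I transcripts. The 9 B cell genes summed to 45.6 to 67.8 CPM in BcorΔE9-10 and 40.9 to 61.5 in BcorWT, with Ms4a1 at 0 in all 5 libraries. Most of each sum was Ighm, at 35.0 to 46.9 CPM against 48.1 and 33.3. Of the scarcer B cell genes, Pax5 had 15, 11 and 15 counts against 4 and 1, and it passed the filter on low counts through the BcorΔE9-10 libraries alone, so no test is given. The 10 T or NK cell genes summed to 131 to 174 CPM and 191 to 192 CPM. Nkg7 made up 122 to 164 CPM of these sums in BcorΔE9-10 and 183 and 184 in BcorWT, whereas the NK cell receptor gene Ncr1 lay the other way, at 2.72 to 4.79 CPM against 0.994 and 1.48. In BcorΔE9-10 and BcorWT, the 10 dendritic cell or macrophage genes summed to 9.14 to 10.5 and 15 to 18 CPM. The macrophage genes C1qa and C1qb had 21 and 12 counts in BcorWT library 2 and at most 1 in any other library. The 8 basophil, mast cell and eosinophil genes summed to 418 to 589 CPM against 990 to 1283. Most of each sum was Prg2, at 233 to 389 CPM against 817 and 691. Of the 8, all tested, Gata2 passed as higher (log2 fold change 1.05, limma adjusted p = 0.00726) and 5 passed as lower, where 6.02% and 4.09% of all genes did. The 10 erythroid genes summed to 64.7 to 259 CPM against 24.4 to 67.7. The part of these cells in the values of H2-D1 and Psmb9 was not tested.

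The genes nearest to Tap2 in their pattern over the 5 libraries were found among 7714 genes, by the root mean square distance in centred log2 CPM. They were Rpl17-ps10 (distance 0.227), Gm15843 (0.230), Snrpf (0.249), Chil4 (0.284) and Hoxa9 (0.454). Rpl17-ps10 and Gm15843 are processed pseudogenes on chromosomes 7 and 1, Snrpf encodes a core protein of spliceosomal particles, Chil4 a chitinase-like protein and Hoxa9 a homeobox factor of haematopoietic progenitors. None lies on chromosome 17. As genes selected on the same values, they carry no test here, and their log2 fold changes were 3.44 to 3.86.

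In BcorWT libraries 1 and 2, Tap2 stood at 4.91% and 10.2% of its BcorΔE9-10 mean. The corresponding values were 5.69% and 14.3% for Rpl17-ps10, 4.09% and 13.3% for Gm15843, 4.73% and 13.6% for Snrpf and 3.38% and 13.7% for Chil4. Library 2 was 2.09-fold to 4.05-fold above library 1 in Tap2 and these 4 genes, whereas Hoxa9 had 8.32% and 8.13%. Among the other members, Psmb9 stood at 44.0% and 66.3% of its BcorΔE9-10 mean and Psmb8 at 85.4% and 96.7%.

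**Figure D5:**
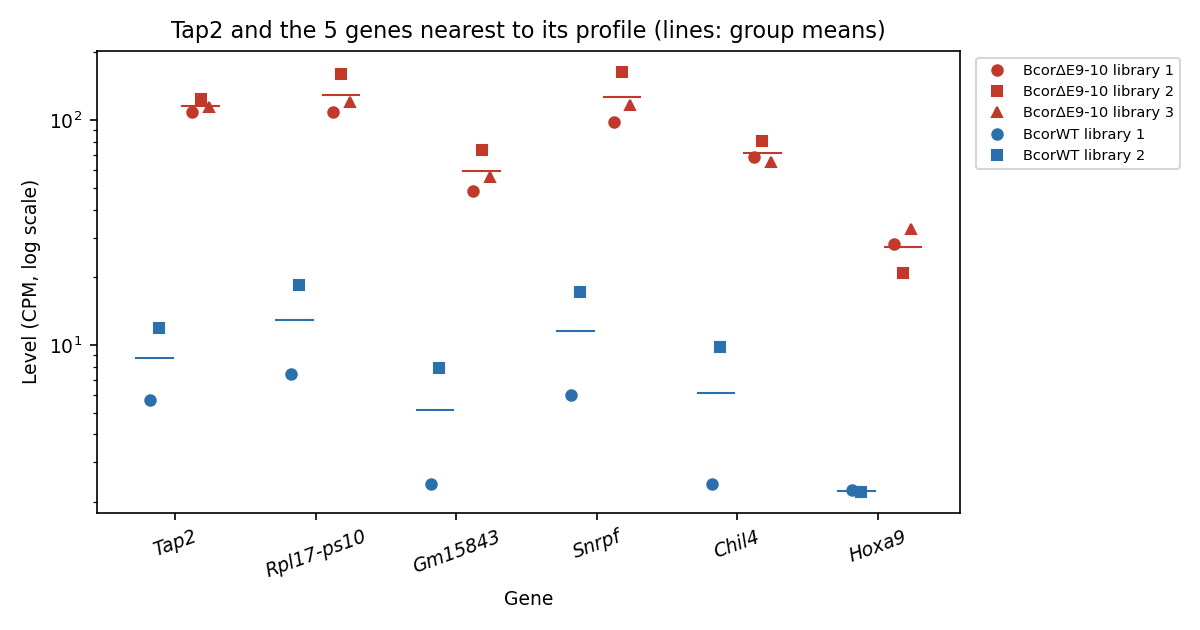
Level in CPM (log axis) of Tap2 and of the 5 genes with the most similar pattern, with 1 point per library and a line at each group mean. BcorWT library 2 lies above BcorWT library 1 in Tap2, Rpl17-ps10, Gm15843, Snrpf and Chil4, and the 2 libraries are level in Hoxa9.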

How the data were processed

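RNA from sorted KL cells of 3 BcorΔE9-10 and 2 BcorWT samples was made into QuantSeq 3′ libraries. The authors demultiplexed reads with bcl2fastq (2.17.1.14), removed low-quality reads, trimmed 5′ and poly-A sequence with cutadapt, used HISAT2 to align reads to mm10 and Subread to count them by gene (1.5.0-p3 per the submitters' processing notes). The deposited file holds raw, whole-number counts for each gene. Settings for strand and for reads that align to several places are not given in the sources used here. Of 52550 genes, 52403 were matched to GENCODE M21, 95.2% of them with the same start and end.

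Genes were filtered with edgeR's filterByExpr (version 4.0.16, minimum count 10, minimum total 15) and scaled by TMM. Genotype was tested across 11766 genes with limma (version 3.58.1) on voom values, two-sided, with Benjamini-Hochberg adjustment and a threshold of 0.05, in R 4.3.3. CPM were computed on TMM-scaled totals. Within each group, libraries differed beyond sampling noise (6.01 to 11.6 in chi-square per gene). The 95% intervals of fold changes are from the limma fit and include the spread between libraries, while limits for counts of 0 cover counting error only. Alternatives were edgeR's quasi-likelihood test, DESeq2 (version 1.42.0), other scalings and filters, quality weights, a replicate block, leaving out each library and, chosen after seeing the data, GC correction (lowess, span 0.3). On simulated counts, limma called 133 of 193 changed genes among 11405 in the right direction, and 5 calls were false.

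Members and gene lists were chosen with earlier results of these data known. Genes named were the members, genes overlapping Tap2 or tested within 100 kb of it, called genes of the lists with their class II and proteasome counterparts, and the 5 genes nearest to Tap2 in pattern (mean log2 CPM 3 or more). Promoter sequences are from RefSeq, GRCm38.p6.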

Additional observations from a re-analysis of the deposited data

How the results depend on the processing

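The number of genes called was 1189 (708 higher, 481 lower). With total counts in place of TMM scaling the split was 1210 higher and 197 lower, and the median over all genes moved on the log2 scale from 0.00 to 0.15, so changes there are relative to 0.15. Of the 8 members other than Tap2 and Nlrc5, 2 were called, and 1 with total counts. Of 42 other pathway genes, 4 were called, and 2 with total counts, 2 with no expression filter (1 of them higher), 1 after GC correction and 2 when the replicate block was added to it. Of 11 neighbours, 2 were called, and 11 of 78 within 1 Mb, Gm17251 among the 11. Leaving out 1 library gave 558 to 1200 genes, 1 to 2 members, 1 to 3 other pathway genes and 0 to 2 neighbours, the 558 and the 0 without BcorWT library 1. Without BcorΔE9-10 library 2 or 3 the genes called were 774 and 723. Under the replicate block 1454 genes, 3 members, 3 pathway genes and 2 neighbours were called. The deviations of same-numbered libraries correlated at 0.07 and 0.0756. With 2 BcorWT libraries, the deviations of these mirror each other, so the correlations cannot show whether a shared number pairs libraries. With GC correction 1010 genes were called, 843 of them also called in the main fit. With the block as well these numbers were 1258 and 864.

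Tap2 kept a log2 fold change of 3.71 to 3.96 under alternatives that kept all libraries. Values that turned in sign belonged to genes past no threshold. With total counts they were Tap1 (0.032), B2m (0.025) and H2-DMb1 (0.042), with the replicate block H2-Ab1 (-0.042), and under both GC correction and the replicate block Tap1 (0.057) and H2-DMb1 (0.026). The values with total counts stayed below the median over all genes there (0.15), so their place relative to all genes did not turn. Leaving out 1 library gave ranges of -0.27 to 0.041 for Tap1, -0.064 to 0.27 for Psmb10, -0.25 to 0.046 for H2-DMb1, -0.036 to 0.23 for H2-DMa, -0.50 to 1.04 for H2-Eb1, -0.72 to 1.59 for H2-Ob, -0.35 to 0.57 for H2-Ab1 and -0.49 to 0.81 for H2-Aa. The cause was not tested. Depth limits what can be read from Nlrc5, which had 4 to 18 counts per library.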
